A study of Homo sapiens with 5 samples.

Results

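The pluripotency genes POU5F1, NANOG, TDGF1, DPPA4, L1TD1, LIN28A, LIN28B, ZFP42, TERF1 and ESRG were followed from undifferentiated human embryonic stem cells to young neurons. They were taken by symbol, with no threshold on their values, and are 10 of the 36601 genes counted at D0 to D10. The list for D22 to D26 holds 33538 genes and 9 of the 10, since it has no entry for the long noncoding RNA ESRG, which was not analysed there. All but LIN28A and LIN28B are also in the list of markers that the study drew from these cells for its undifferentiated cluster. So neither their high D0 level nor their fall after D0 is independent evidence.

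The cells were WA09, a wild-type human embryonic stem cell line, taken through a differentiation to neurons that make gonadotropin-releasing hormone (GnRH), and their RNA was read by droplet single-cell sequencing of transcript 3′ ends. D0 was the undifferentiated culture. The D5 and D10 cultures had received dorsomorphin and SB431542, which block BMP and TGF-β/Activin/Nodal receptors and together are called dual SMAD inhibition (dSMADi), either alone or with 10 µM of XAV939, a tankyrase inhibitor that dampens Wnt signalling. The D22, D24 and D26 cultures had gone through the same dSMADi without XAV939, then FGF8 and then the Notch pathway inhibitor DAPT, with a freeze and thaw on the way. Each condition was 1 library of 1 cell line. The D0 to D10 cultures were labelled with oligonucleotide tags and pooled in 1 droplet run, whereas D22, D24 and D26 were dissociated differently and each run apart. Day and run therefore cannot be told apart between D10 and D22, nor among D22, D24 and D26.

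POU5F1 (OCT4) and NANOG are transcription factors that hold embryonic stem cells in the undifferentiated state together with SOX2, and human cells of this kind need Activin/Nodal signalling, with TDGF1 (CRIPTO) as a Nodal co-receptor, to keep them on. When that signal is blocked the cells leave pluripotency, mostly toward neural tissue. LIN28A and LIN28B are RNA-binding proteins that stop let-7 microRNAs from maturing, and they are made in early neural progenitors as well as in stem cells.

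After filtering, 40513 of 44007 cell barcodes were kept, 1009 to 11056 per library, with 58073098 to 130440502 unique molecular identifiers (UMIs, each 1 captured transcript) per library. The median depth was 24290.5 to 69455 UMIs per cell in the pooled libraries, with D0 the deepest, and 7180 to 12179 at D22 to D26. The pooled libraries shared 0 barcodes with each other. Levels are UMIs summed over the cells of a library and scaled to 1000000 UMIs (CPM). Intervals are 95% and cover counting error only, and since no condition had a second library, differences were not tested and carry no p-value. A gene was called higher or lower where the ratio was at least 2-fold with an interval that left out 1, among genes with more than 3 UMIs in either library. In summed counts, fewer cells of a type and less RNA per cell cannot be told apart. The D0 label was checked with 7 pluripotency markers outside the 10 genes (DNMT3B, SALL4, PRDM14, DPPA2, GDF3, PODXL, EPCAM), which summed to 910.4 CPM at D0, to 173 to 268 CPM at D5 and D10 and to at most 40.8 CPM at D22 to D26. Most of the D5 and D10 sums was SALL4, at 183 and 172 CPM in dSMADi, above its D0 level, and at 139 and 113 with XAV939. In a clustering built without the pluripotency genes, 1007 of the 1009 D0 cells formed 1 cluster and 0 cells of D5 or D10 fell in it.

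All 10 genes were well expressed at D0, and they left that level in different ways. Of the 10, 8 were at least 2-fold lower at D5 in dSMADi, where 21.7% of all genes were lower by the same rule, and 0 were higher, against 12.5% of all genes. With XAV939 the same 8 were lower at D5 (background 20.9%) and 0 were higher (13.6%). The exceptions were LIN28A and LIN28B in both arms, which share the same D0 library. The 8 are the genes in the study's marker list for its undifferentiated cluster. Their counts beside the background are therefore descriptions and not independent evidence. The median log2 ratio of the 10 genes to D0 at D5 was -4.44 without and -4.53 with XAV939, while that of all genes was -0.12 and -0.06. The plot of levels by day shows the 3 courses: a near loss by D5, a partial loss with a long tail, and a level that held through D10.

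**Figure D1:**
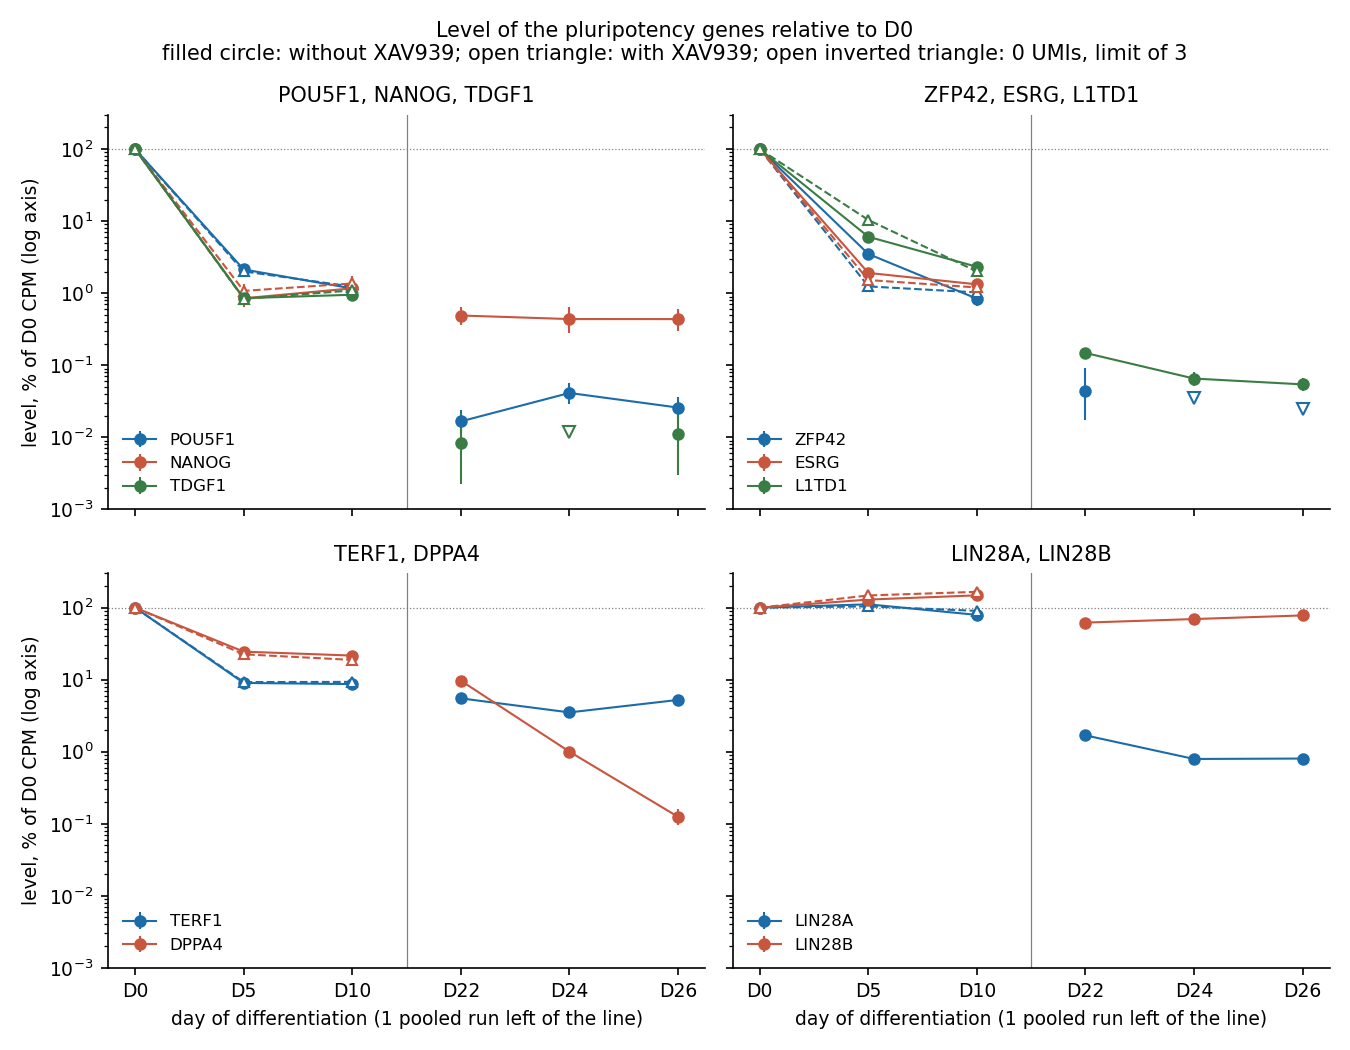
Level of each of the 10 genes as a percent of its D0 CPM (log axis) against day of differentiation, in 4 panels; each point is 1 library, filled circles are without and open triangles with XAV939, open inverted triangles stand at the limit of 3 UMIs where a library held 0, and bars are 95% counting intervals. POU5F1 is at 2.14% at D5 and 0.0166% at D22, DPPA4 goes from 9.68% at D22 to 0.125% at D26, and LIN28B stays between 62.0 and 166%.

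POU5F1 (chr6:31164337-31180731, minus strand; positions are GRCh38 with GENCODE 44), the central transcription factor of the group, stood at 1244 CPM at D0, 26.6 at D5 and 14.5 at D10 in dSMADi, 25.0 at D5 and 15.4 at D10 with XAV939, and 0.207, 0.513 and 0.322 at D22, D24 and D26. D0 was far above every later library, and no arm or day after it came near. The drop from D0 to D5 was 46.8-fold (44.8 to 48.9) in dSMADi and 49.7-fold with XAV939. Between D5 and D10 in dSMADi the log2 ratio of POU5F1 was -0.88 (-0.98 to -0.77), which missed the 2-fold limit. The ratio was past it with TMM (-1.12) and DESeq2 (-1.12) factors and with totals free of mitochondrial and ribosomal protein genes (-1.03). Of its 7 annotated near copies, 1 was counted, at 10.54 CPM at D0, and reads of TCF19, which overlaps it on the other strand, were at 6.18 CPM.

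NANOG (chr12:7787794-7799146, plus strand), a homeobox transcription factor and a partner of POU5F1, stood at 78.1 CPM at D0, 0.665 at D5 and 0.914 at D10 in dSMADi, 0.842 at D5 and 1.07 at D10 with XAV939, and 0.383, 0.342 and 0.342 at D22, D24 and D26. It fell 117-fold (89.7 to 157) by D5 in dSMADi and 92.8-fold with XAV939, the steepest drop of the 10 without XAV939 together with that of TDGF1. Everything after D0 rested on 24 to 73 UMIs per library, and no further change between D5 and D10 was detectable (log2 0.46, -0.07 to 1.00, in dSMADi). Of the 11 annotated near copies of NANOG, 2 were in the gene list. Only NANOGP8 had UMIs, at 2.29 CPM at D0 and with 2, 0 and 2 UMIs at D22, D24 and D26. The part of the other copies in the NANOG UMIs was not tested. The NANOG promoter is shown because it carries the one exact composite of a SOX site and an octamer, the sites bound by SOX2 and POU5F1, among the 5 members whose promoters RefSeq's table gave (L1TD1, DPPA4, ZFP42, LIN28B, NANOG). It is the 250 bases before the RefSeq start on GRCh38, chr12:7789152-7789401, plus strand, with the composite in capitals (read on the other strand, CATTGT for SOX, 1 base of any kind and ATGCAAA for the octamer, which do not overlap). On either strand, the composite was found in 2 of 35116 promoter windows of that length (0.00570%), ATGCAAA in 3.94% and CATTGT in 9.29%.
NANOG: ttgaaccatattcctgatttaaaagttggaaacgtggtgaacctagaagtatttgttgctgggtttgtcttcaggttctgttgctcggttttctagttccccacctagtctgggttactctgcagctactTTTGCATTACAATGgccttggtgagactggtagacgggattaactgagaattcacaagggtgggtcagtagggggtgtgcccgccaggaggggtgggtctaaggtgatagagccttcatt

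TDGF1 (chr3:46574534-46582457, plus strand), the Nodal co-receptor, stood at 366 CPM at D0, 3.12 at D5 and 3.49 at D10 in dSMADi, and 3.07 and 4.01 with XAV939. Its drop by D5 was 117-fold (103 to 133) in dSMADi and 119-fold with XAV939. After that it was about level, with a log2 ratio of D10 to D5 of 0.39 (0.13 to 0.65) with XAV939 and of 0.16 in dSMADi, which turns to -0.083 with TMM scaling. At D22, D24 and D26 it had 4, 0 and 4 UMIs, too few for a ratio between those days.

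ZFP42 (REX1; chr4:187995771-188005046, plus strand), a zinc finger factor used as a mark of undifferentiated cells, stood at 122 CPM at D0, 4.29 at D5 and 1.03 at D10 in dSMADi, and 1.52 and 1.26 with XAV939. It was the slowest of the early group in dSMADi: it fell 28.5-fold (25.6 to 31.9) by D5 and then a further 2.06 on the log2 scale (1.71 to 2.43) by D10. With XAV939 it had reached 80.4-fold below D0 by D5, and the next step was not detectable (log2 -0.28, -0.71 to 0.15). At D22, D24 and D26 it had 7, 0 and 0 UMIs.

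ESRG (chr3:54632122-54639857, minus strand) is a long noncoding RNA that lies within CACNA2D3 on the opposite strand and is known from human pluripotent cells. It stood at 232 CPM at D0, 4.44 at D5 and 3.09 at D10 in dSMADi, and 3.54 and 2.79 with XAV939, so all 4 treated libraries were close together and far under D0. The drop by D5 was 52.2-fold (47.0 to 58.2) in dSMADi and 65.6-fold with XAV939. The host gene CACNA2D3 was at 2.69 CPM at D0.

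L1TD1 (chr1:62194849-62212328, plus strand), an RNA-binding protein derived from a LINE-1 element, had 1722 CPM at D0, 105 at D5 and 40.1 at D10 in dSMADi, 179 and 34.5 with XAV939, and 2.55, 1.13 and 0.935 at D22, D24 and D26. It went down in steps: 16.5-fold (16.1 to 16.8) by D5 in dSMADi and 9.62-fold with XAV939, then a further 1.38 (1.33 to 1.44) and 2.37 (2.31 to 2.44) on the log2 scale by D10. It was the 1 gene of the 10 that fell at least 2-fold between D5 and D10 in both arms.

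TERF1 (chr8:73008856-73048123, plus strand), a shelterin protein that binds telomeric DNA, had 1312 CPM at D0, 118 at D5 and 114 at D10 in dSMADi, 122 and 122 with XAV939, and 72.3, 46.1 and 68.7 at D22, D24 and D26. It fell 11.1-fold (10.9 to 11.3) by D5 and then stayed put, with log2 ratios of D10 to D5 of -0.05 in dSMADi and 0.01 with XAV939. Unlike the early group it kept 3.51 to 5.51% of its D0 level at D22 to D26.

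DPPA4 (chr3:109326144-109337546, minus strand), a chromatin-associated protein of early embryonic cells, had 555 CPM at D0, 136 at D5 and 119.8 at D10 in dSMADi, 125 and 104 with XAV939, and 53.7, 5.56 and 0.694 at D22, D24 and D26. It fell 4.08-fold (3.99 to 4.17) by D5, barely moved by D10 (log2 -0.18 and -0.26), and fell at every later step, from D10 to D22 to D24 to D26.

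LIN28A (chr1:26410817-26429728, plus strand) had 473 CPM at D0, 526 at D5 and 375 at D10 in dSMADi, 492 and 427 with XAV939, and 7.97, 3.75 and 3.80 at D22, D24 and D26. It was 1.11-fold above D0 at D5 (1.10 to 1.13) and 1.26-fold below it at D10 in dSMADi, which is within 2-fold throughout the first 10 days. Its large drop lay between D10 and D22, where it was 47.0-fold lower (44.2 to 50.1), a comparison that crosses droplet runs.

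LIN28B (chr6:104936616-105083332, plus strand) had 130.3 CPM at D0, 169 at D5 and 193 at D10 in dSMADi, 193 and 216 with XAV939, and 80.8, 90.5 and 102 at D22, D24 and D26. It was the one gene above its D0 level in every D5 and D10 library, by 1.30-fold (1.26 to 1.33) at D5 and 1.48-fold at D10 in dSMADi, and it kept 62.0 to 78.0% of the D0 level at D22 to D26. The paralogs LIN28A and LIN28B thus parted after D10, with LIN28A at 0.793 to 1.69% of D0 at D22 to D26.

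The let-7 sequences and their sites are shown because the 2 LIN28 genes, which block let-7, also carry sites for it. The RefSeq let-7a, let-7b and let-7g strands have the seed (bases 2 to 8) in capitals, and all 9 let-7 and miR-98 names of the 5′ arm in the table share it. Mature microRNAs are not measured by this assay.
hsa-let-7a-5p: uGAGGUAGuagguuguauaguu
hsa-let-7b-5p: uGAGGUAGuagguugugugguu
hsa-let-7g-5p: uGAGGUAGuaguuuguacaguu

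The DNA letters that pair with the seed, CTACCTC, were searched in 1 reference transcript per gene. The search covered the 3′ untranslated region, read in the sense of the messenger RNA. LIN28A had 1 site, LIN28B had 4, and the other 7 protein-coding members had 0. Of 18780 such regions, 9.85% held at least 1 site and 0.192% held 3 or more. These shares were not matched for length. The LIN28A and LIN28B regions were 3270 and 4549 bases long, against a median of 1088.5 over all regions. The 7 without a site ran from 264 bases (POU5F1) to 4051 (NANOG). A match is a description of the sequence and not evidence of binding. Sites are in capitals, with the genome positions of each 30-base stretch first.
LIN28A at chr1:26427348-26427377: gcacagcctattgaaCTACCTCatttttgc
LIN28B at chr6:105078812-105078841: acccggttgcaaagtCTACCTCatgcaagt
LIN28B at chr6:105081239-105081268: tactgatgatagtaaCTACCTCtgagtttg
LIN28B at chr6:105081421-105081450: gtttacagcaaaaggCTACCTCatagttga
LIN28B at chr6:105082860-105082889: aaatgatggtgttgaCTACCTCttgaatca

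By D10 the early group had come together near 1% of D0. In dSMADi at D10, ZFP42 was at 0.840% of its D0 level (0.666 to 1.04), TDGF1 at 0.953% (0.843 to 1.07), POU5F1 at 1.16% (1.10 to 1.23), NANOG at 1.17% (0.914 to 1.48) and ESRG at 1.33% (1.17 to 1.51). The intervals of NANOG overlap those of the other 4, whereas ZFP42 and TDGF1 lie under POU5F1 and ESRG beyond counting error. Above them came L1TD1 at 2.33%, TERF1 at 8.69%, DPPA4 at 21.6%, LIN28A at 79.4% and LIN28B at 148%. With XAV939 the order at D10 was similar, with ZFP42 at 1.03%, TDGF1 at 1.10%, ESRG at 1.20%, POU5F1 at 1.24% and NANOG at 1.37%, all with overlapping intervals, and L1TD1 at 2.01%.

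The place of these genes among all others was read from the 1652 genes with at least 100 CPM at D0, which leaves out NANOG. The median of those genes kept 76.2% of its D0 level at D5 and 84.2% at D10 in dSMADi. Counted from the lowest at D5, TDGF1 was in place 3, ESRG 12, POU5F1 13, ZFP42 18, L1TD1 25, TERF1 35 and DPPA4 81, and LIN28A and LIN28B were in places 1337 and 1465. At D10 in dSMADi ZFP42 had moved to place 3, TDGF1 was in place 7, POU5F1 10, ESRG 13 and L1TD1 16. The lowest gene was AC009446.1, at 0.7803% at D5 and 0.621% at D10, and 12 and 14 genes were under 2%. So TDGF1, ZFP42, POU5F1 and ESRG were among the 13 lowest genes at D10 in dSMADi. All of them are in the marker list that the study drew from these cells for its undifferentiated cluster. They were also grouped as early by their low residual level. Their low places in a ranking by percent of D0 are therefore descriptions and not independent evidence.

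**Figure D2:**
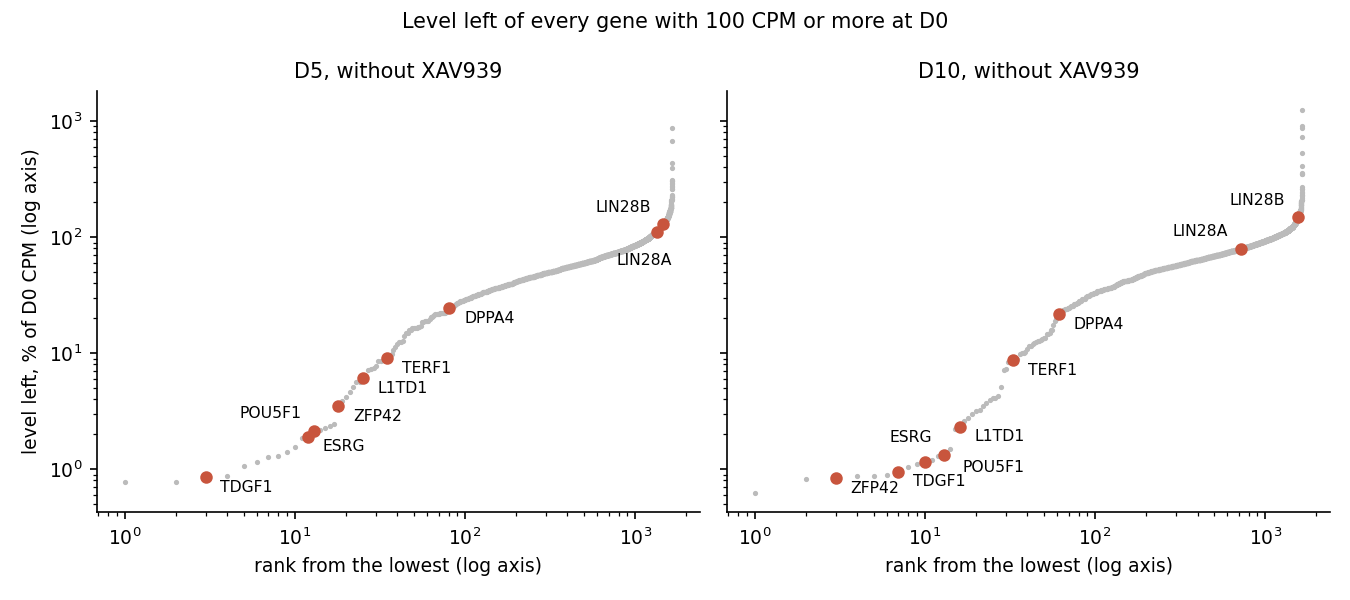
Percent of the D0 level left (log axis) at D5 and D10 without XAV939 for the 1652 genes with at least 100 CPM at D0, ranked from lowest to highest (log axis), with the pluripotency genes labelled. At D5 TDGF1 is at 0.853%, ESRG at 1.91%, POU5F1 at 2.14% and ZFP42 at 3.51%; at D10 the 4 lie between 0.840 and 1.33%, and LIN28A and LIN28B are far to the right on both days.

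The tags of the pooled run give values to set beside these residual levels. The D0 oligonucleotide tag made up 0.460% of the tag counts at D5 without XAV939 and 0.495% with it, and 0.477 and 0.645% at D10, while each of 7 tags not used in the pool made up at most 0.0220%. In each of these libraries the D0 tag was the lowest of the pool's other tags, and the highest of them made up 2.06 and 2.33% at D5 and 2.19 and 1.82% at D10. The tag shares do not measure carried-over RNA, whose part in the residual UMIs was not tested. At D22 to D26, in runs that held no D0 culture, POU5F1 was at 0.0166 to 0.0413% of D0, TDGF1 at 0 to 0.0110% and NANOG at 0.438 to 0.491%.

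The share of cells with at least 1 UMI was compared after each cell of D0 to D10 was thinned to 10000 UMIs, which left out no cell. As a background, 79 neuron-like cells of D10 (STMN2, DCX, TUBB3, ELAVL4, INA) were used, a type that should lack POU5F1, NANOG, TDGF1, ZFP42 and ESRG; their median depth was 20430 UMIs, against 31112.5 and 24290.5 for all D10 cells without and with XAV939. POU5F1 was seen in 99.9% of D0 cells, in 22.6 and 22.5% of D5 cells and in 13.5 and 14.4% of D10 cells without and with XAV939. The neuron-like cells had it in 12.7% (6.24 to 22.05), so the D10 shares were within the background interval, and the D5 shares lay just above its upper bound. Without thinning the shares were 54.6, 51.3, 35.9 and 32.2%, with 30.4% in the neuron-like cells.

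TDGF1 went from 96.6% of D0 cells to 3.06 and 3.30% at D5 and 3.27 and 3.37% at D10, all within the interval of the neuron-like cells (6.33%, 2.09 to 14.2), which rests on 79 cells, so a share above that background was not detectable. ESRG went from 83.4% to 4.13, 3.45, 2.90 and 2.63%, again within the interval of the neuron-like cells (5.06%, 1.40 to 12.5). NANOG went from 49.8% to 0.579, 0.853, 1.08 and 1.38%. The 79 neuron-like cells held 0 with NANOG and 0 with ZFP42, where the Clopper-Pearson interval reaches 4.56%. All thinned D5 and D10 shares of both genes, the 3.97% of ZFP42 at D5 in dSMADi included, lay under that bound. So 79 cells cannot decide whether these shares exceed the background. ZFP42 went from 69.9% to 3.97% (3.23 to 4.82) at D5 in dSMADi, above the other 3 libraries at 1.24% (0.868 to 1.72), 0.911% and 1.15%. Without thinning the D10 shares in dSMADi were 2.94% for NANOG, 10.4% for TDGF1, 3.31% for ZFP42 and 9.35% for ESRG. Unthinned, ZFP42 was in 11.5% (10.3 to 12.9) of D5 dSMADi cells and in 4.48% of D5 XAV939 cells. The neuron-like cells still held 0 of 79 (up to 4.56%), so the D5 dSMADi share lay above their interval. Median depth was 28789 UMIs in the D5 dSMADi cells and 20430 in the neuron-like cells.

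L1TD1 was in 99.9% of D0 cells, 55.3 and 71.6% of D5 cells without and with XAV939, and 28.8 and 25.0% of D10 cells, beside 21.5% (13.1 to 32.2) of the neuron-like cells, whose interval holds the D10 shares and not the D5 shares. DPPA4 was in 99.2% of D0 cells, 72.8 and 68.8% at D5 and 64.9 and 57.2% at D10, and TERF1 in 99.9%, then 65.4 to 68.6%. LIN28A was in 96.7% of D0 cells and in 94.5 to 97.9% of D5 and D10 cells, and LIN28B went from 68.9% at D0 to 77.5 to 85.7%. The neuron-like cells are no background for L1TD1 or these 4 genes, which neural cells may express, and they had DPPA4 in 35.4%, TERF1 in 55.7%, LIN28A in 83.5% and LIN28B in 78.5%. Without thinning the 4 were in 80.0 to 99.9% of D5 and D10 cells and L1TD1 in 45.8 to 90.3%.

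**Figure D3:**
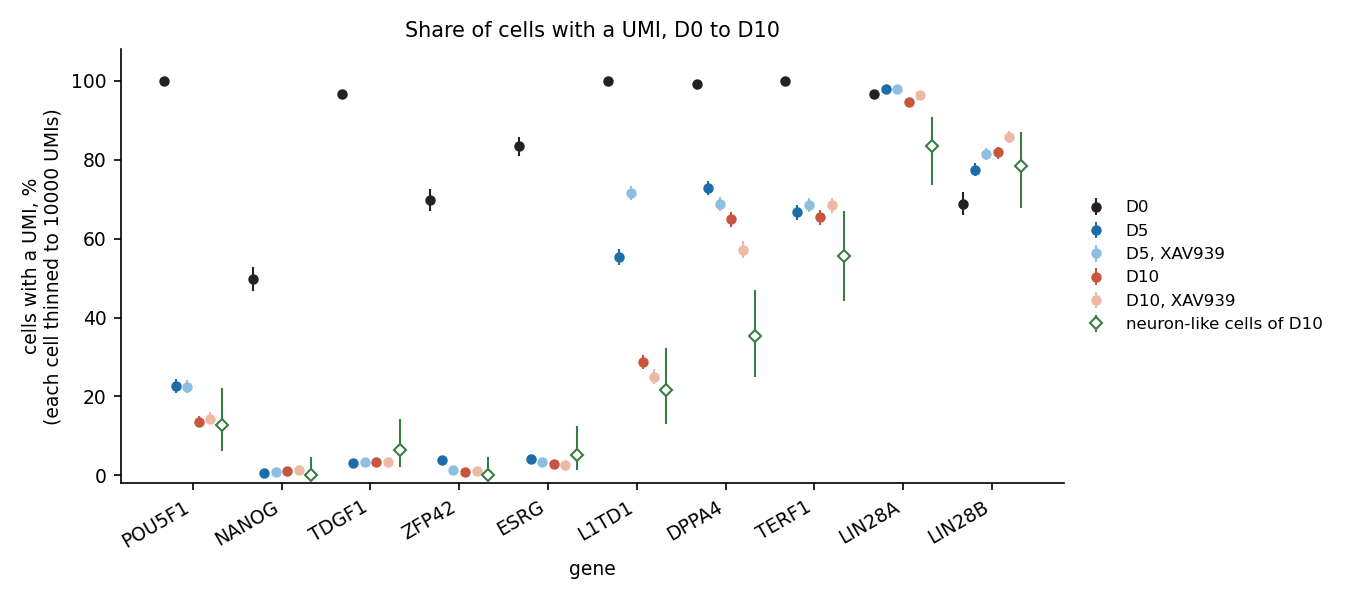
Percent of cells with at least 1 UMI of each gene after thinning every cell to 10000 UMIs, in the 5 pooled libraries and in the 79 neuron-like cells of D10; bars are 95% Clopper-Pearson intervals. NANOG, TDGF1, ZFP42 and ESRG are under 5% in all D5 and D10 libraries, and LIN28A is over 94% in them.

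The residual POU5F1 and TDGF1 UMIs were thinly spread, and no cell of D5 or D10 reached the usual D0 range of either gene. The 5th percentile of D0 cells was 911 CPM for POU5F1 and 206 CPM for TDGF1, and 0 of the D5 and D10 cells were above either. The most POU5F1 UMIs in a cell were 385 at D0, 11 and 16 at D5 without and with XAV939, and 6 and 7 at D10, and the highest level in a D5 cell was 299.7 CPM. The 1% of cells with most POU5F1 UMIs held 6.28 to 8.18% of them at D5 and D10 and 3.09% at D0. L1TD1 had a longer tail than POU5F1 and TDGF1. Above its D0 5th percentile were 1 cell of D5 dSMADi, 6 cells of D5 XAV939 and 0 at D10. Without XAV939, D5 and D10 had 58 and 33 such cells for DPPA4, 59 and 4 for ZFP42, and 44 and 71 for NANOG. With XAV939 they had 60 and 58, 15 and 14, and 66 and 61. ESRG had 4 and 4 without and 5 and 2 with XAV939, and TERF1 had 0 and 0, and 1 and 0. The NANOG percentile was only 17.0 CPM, and no D5 cell held more than 1 NANOG UMI. For LIN28A the picture was the reverse, with 2265 of 2419 D5 dSMADi cells above its D0 5th percentile. Among POU5F1, NANOG, TDGF1, ZFP42 and L1TD1, a set put together after the values were seen, 3 or more were detected in 99.7% of thinned D0 cells, in 1.03 and 0.782% of D5 cells and in 0.207 and 0.415% of D10 cells. All 5 were found together in 347 D0 cells and in 0 cells of D5 or D10.

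The other way round, 2 of the 1009 D0 cells fell outside the D0 cluster. In these cells POU5F1 was at 26.9 and 314 CPM, resting on 1 and 13 UMIs, where the 5th percentile of the D0 cells was 911 CPM.

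Within D5 and D10 the genes differed in how evenly they were spread over the 10 clusters with at least 50 cells. Nearly every cluster came from 1 library (1437 of the 1438 cells of cluster 8 from D10 dSMADi and 1566 of the 1583 of cluster 5 from D5 XAV939, for example), the exception being the 79 neuron-like cells, with 17 and 62 from D10 without and with XAV939. The ranges between clusters therefore include the differences between libraries. L1TD1 ranged from 19.3 to 192 CPM between clusters, 9.93-fold, and DPPA4 from 54.3 to 146 CPM, 2.68-fold. The range was 2.24-fold for TDGF1 (2.88 to 6.45 CPM), 1.93-fold for POU5F1 (14.1 to 27.2 CPM), 1.76-fold for LIN28A, 1.72-fold for ESRG, 1.56-fold for TERF1 and 1.39-fold for LIN28B (159 to 222 CPM). ZFP42 ranged from 0 to 4.94 CPM and NANOG from 0 to 1.31. The 79 neuron-like cells held 0 UMIs of both genes, and with so few cells a 0 is not a measured level. With each library clustered on its own the range of LIN28B was 2.71-fold (94.9 to 257 CPM), so its evenness depends on the clustering. In the 62 neuron-like cells of D10 with XAV939, DPPA4 was at 53.7 CPM and in the neural progenitor-like cells of that library at 106, while POU5F1 was at 16.6 and 15.3 CPM, LIN28B at 180.2 and 217 and LIN28A at 326 and 429.

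Most of the 10 genes differed by less than 2-fold between dSMADi with and without XAV939. Some smaller differences at D5 went beyond counting error. LIN28B was at 169 CPM without and 193 with XAV939, DPPA4 at 136 and 125, and LIN28A at 526 and 492. At D5, 1 of the 10 (ZFP42) was at least 2-fold lower with XAV939, where 2.31% of all genes were, and 0 were higher (background 2.20%). At D10, 0 were lower (background 5.15%) and 0 higher (3.10%). The median log2 ratio of the 10 was -0.06 at D5 and 0.13 at D10, and that of all genes 0.05 and -0.02.

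ZFP42 and L1TD1 were the 2 genes furthest from an equal level at D5, in opposite directions. ZFP42 had 342 UMIs without and 132 with XAV939, 4.29 and 1.52 CPM, a 2.82-fold difference (2.30 to 3.47). L1TD1 had 105 CPM without and 179 with XAV939, a log2 ratio of 0.77 (0.74 to 0.81), under the 2-fold limit. By D10 neither difference remained at that size, with log2 ratios of 0.29 (-0.19 to 0.76) for ZFP42 and -0.22 (-0.30 to -0.13) for L1TD1. At D5 the log2 ratio was -0.09 (-0.18 to -0.00) for POU5F1, -0.03 (-0.28 to 0.23) for TDGF1, 0.34 (-0.19 to 0.88) for NANOG and -0.33 (-0.55 to -0.10) for ESRG, so for these genes a difference of 2-fold lay outside the counting interval. At D10 the ratio was 0.09 (-0.04 to 0.21) for POU5F1, 0.19 for LIN28A, 0.16 for LIN28B and -0.20 for DPPA4.

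**Figure D4:**
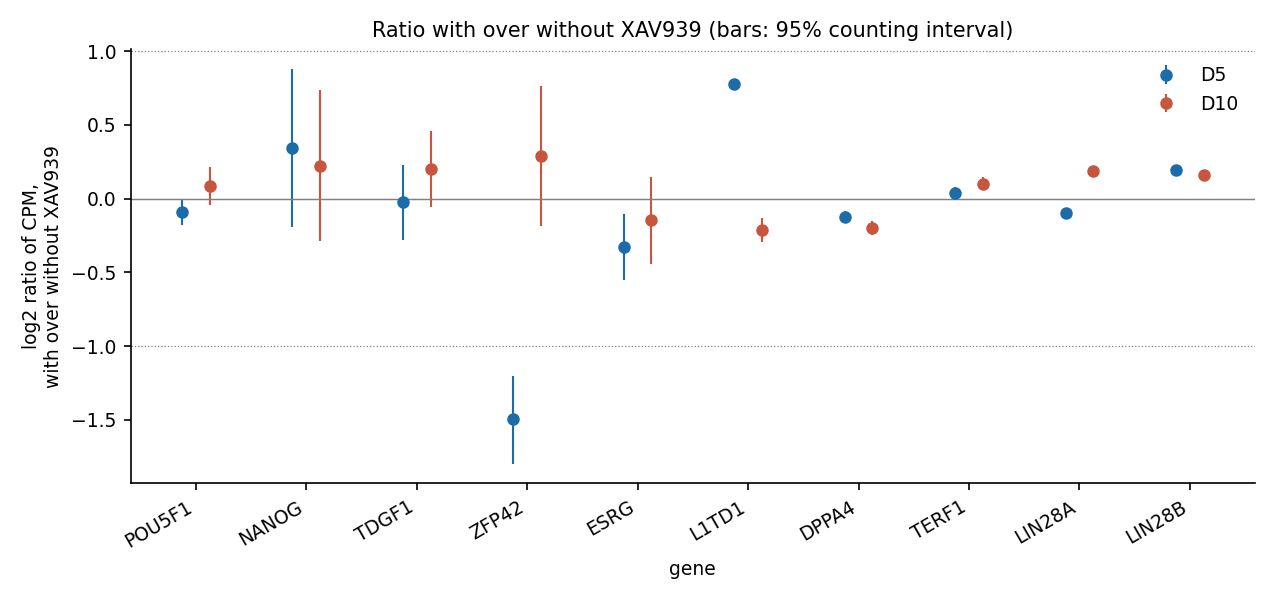
Log2 ratio of the level with XAV939 to that without, at D5 and D10, for the 10 genes; bars are 95% counting intervals and dotted lines mark 2-fold. Only ZFP42 at D5 lies beyond the 2-fold line, 2.82-fold lower, and L1TD1 moves from 0.77 at D5 to -0.22 at D10.

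Between D5 and D10 the genes that had dropped did not return. In dSMADi 2 of the 10 (L1TD1 and ZFP42) were at least 2-fold lower at D10 than at D5, where 3.06% of all genes were, and 0 were higher (10.9%). With TMM or DESeq2 factors, or totals free of mitochondrial and ribosomal protein genes, 3 were lower, the third being POU5F1. With XAV939 1 of the 10 (L1TD1) was lower (background 3.74%) and 0 were higher (8.58%). Against D0, 8 of the 10 were lower at D10 in dSMADi (background 16.3%) and 8 with XAV939 (17.0%), in each arm the 8 of the study's marker list. Against D0 0 were higher in either arm, where 18.9 and 17.8% of all genes were.

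The cultures of D22 to D26 were the last stage, in which DPPA4 made the largest movement. Against D10 dSMADi, 8 of the 9 genes listed were lower at D22 (background 25.9%), the exception being TERF1 at 1.58-fold lower, but run, dissociation and software version changed with the day. Within the late series each day was also a run of its own. There 3 of the 9 were lower at D24 than at D22 (background 15.2%), namely DPPA4, L1TD1 and LIN28A, and 1 was higher (13.0%), POU5F1. DPPA4 fell 9.66-fold (8.72 to 10.7) from D22 to D24 and 8.01-fold (6.19 to 10.5) from D24 to D26, from 7005 UMIs to 390 and 69. From D24 to D26 it was the 1 gene lower of the 8 with enough UMIs (background 5.76%), and 0 were higher (9.50%). The rise of POU5F1 from D22 to D24 rested on 27 and 36 UMIs, each in a cell of its own, or 0.207 and 0.513 CPM. From D22 to D26 3 of the 9 were lower (background 15.4%), namely DPPA4 with LIN28A (2.10-fold) and L1TD1 (2.73-fold), and 0 were higher (19.4%), with LIN28B at 1.26-fold higher.

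After thinning all cells to 1500 UMIs, DPPA4 was in 7.26% of D22 cells, 0.703% of D24 cells and 0.0724% of D26 cells, and in 55.2% at D0 and 14.8% at D10 dSMADi. LIN28B was in 11.1, 12.8 and 14.5% of cells at D22, D24 and D26, and in 17.1% at D0. LIN28A was in 45.8% at D0, 39.7% at D10 dSMADi and 1.09, 0.637 and 0.534% at D22, D24 and D26. At 1500 UMIs TDGF1 was in only 40.04% of D0 cells, so its late share was read unthinned, with 4 of 9523 cells at D22 (0.0420%), 0 of 9107 at D24 (Clopper-Pearson interval up to 0.0405% of cells with a UMI) and 4 of 11056 at D26 (0.0362%). Unthinned, DPPA4 was in 42.8, 3.71 and 0.534% of the cells at D22, D24 and D26, LIN28B in 59.3, 45.7 and 52.9% and LIN28A in 9.45, 2.84 and 3.20%.

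The cell classes of the late cultures changed over the same days, as did the level of DPPA4 within them. Proliferating neural progenitor-like (PNP-like) cells made up 23.5% of cells at D22 and 0.593% at D24, nonproliferating neural progenitor-like (NNP-like) cells 52.9 and 0.154%, and glutamatergic-like (Glut-like) neurons 5.93 and 85.5%, so the D22 sample, labelled as neurons, held mostly progenitor-like cells. At D22 DPPA4 was at 59.4 CPM in NNP-like, 48.9 in PNP-like, 17.1 in Glut-like and 77.1 in GnRH-GABA-like cells. In Glut-like cells it was at 5.12 CPM at D24 and 0.582 at D26, and in GnRH-GABA-like cells, those with GNRH1 and DLX genes, at 2.49 and 0.278. The fall was therefore also seen within both classes, although different clusters held most of each class on different days (GnRH-GABA-like cells came from cluster 1 at D22, with 731 of 769 cells, and from cluster 5 at D26, with 1769 of 1773; Glut-like cells came mostly from cluster 7 at D22 and D24 and cluster 8 at D26).

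LIN28B was highest of the named classes in the Glut-like cells on every day, at 127, 98.6 and 115 CPM at D22, D24 and D26 (the 449 cells of D22 left unnamed also had 127), compared with 70.4, 46.7 and 56.0 in GnRH-GABA-like cells and 36.9, 43.4 and 58.3 in IRX-like cells. LIN28A was the other way about in these 2 classes, with 6.89, 3.46 and 2.99 CPM in Glut-like and 11.2, 7.89 and 5.18 in GnRH-GABA-like cells. In the IRX-like cells, named from IRX genes, it was at 10.1, 4.70 and 18.7 CPM on the 3 days, the last resting on 50 UMIs and drawn mostly from another cluster than at D22. TERF1 showed no such split, with 59.5 and 63.9 CPM in these 2 classes at D22 and 69.3 and 64.9 at D26. Part of the L1TD1 at D22 lay in a few cells: 22 of 9523 had 3 or more UMIs and together held 90 of the 333 UMIs (27.0%). Of these 22 cells 18 were NNP-like, and they held 0 UMIs of POU5F1, TDGF1 and ZFP42, 3 of LIN28A and 1 of NANOG.

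**Figure D5:**
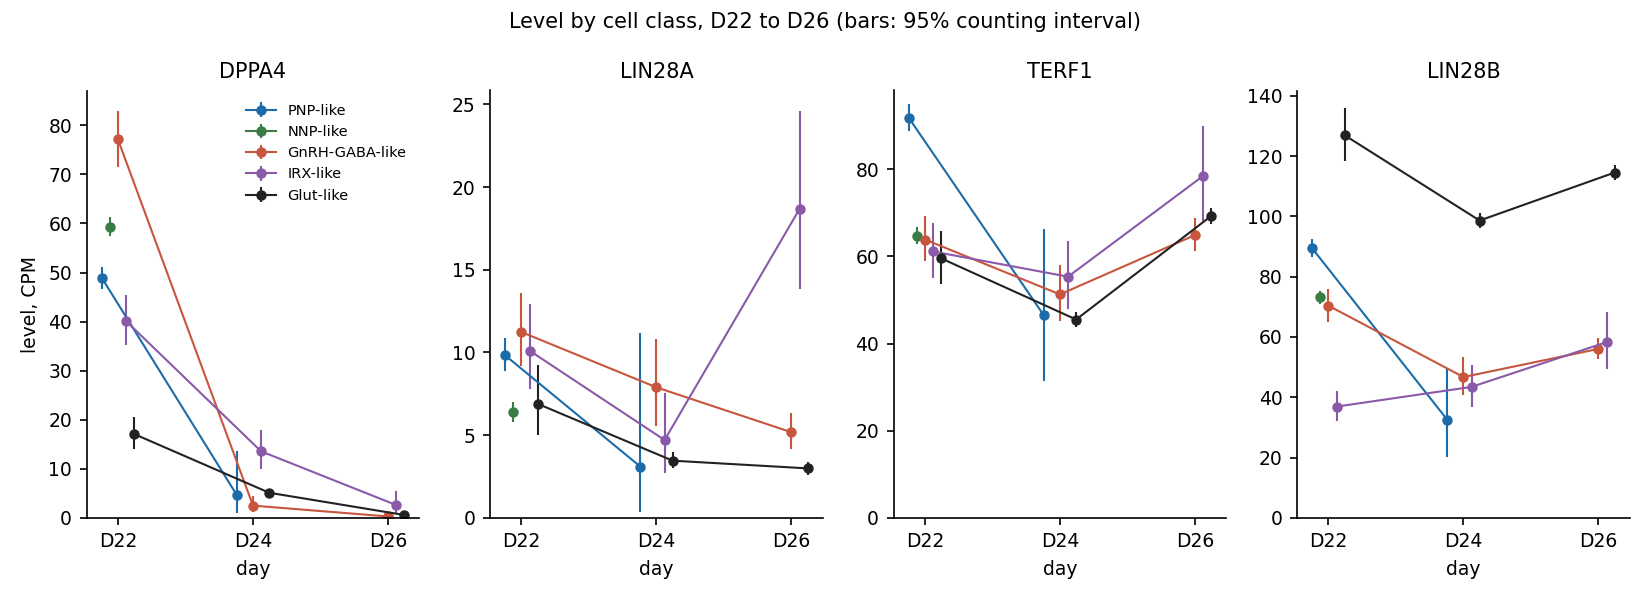
Level (CPM, linear axes that differ between panels) of DPPA4, LIN28A, TERF1 and LIN28B in the cell classes of D22, D24 and D26 (colours); bars are 95% counting intervals. DPPA4 drops within the Glut-like class from 17.1 to 5.12 to 0.582 CPM, while LIN28B stays between 36.9 and 127 CPM in the Glut-like, GnRH-GABA-like and IRX-like classes.

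A list of 30 other pluripotency genes moved with the early group. It was chosen with earlier results of these data known and holds MT1G and POLR3G, leading genes of the D0 cluster. Its counts are therefore descriptions and not independent evidence. At D5 in dSMADi 26 of the 30 were lower (21.7% of all genes) and 0 higher than at D0, with a median log2 ratio of -3.43 (all genes -0.12). The lowest of those with at least 10 CPM were the long noncoding RNAs LNCPRESS2, from 20.7 to 0.0878 CPM, and LNCPRESS1, from 57.6 to 0.602. SALL4 and SOX2, transcription factors that neural progenitors also use, lay at the other end, at 116 and 183 CPM and at 382 and 717 CPM at D0 and D5. With XAV939, 27 of the 30 were lower (20.9% of all genes) and 1 (SOX2, 853 CPM) was higher (13.6%). MIR302CHG, the host transcript of the miR-302 and miR-367 microRNAs of stem cells and chosen after its values were seen, went from 820.3 CPM to 81.2 and 44.9 at D5 without and with XAV939, 26.8 and 20.6 at D10, and 0.146, 0.0570 and 0.0402 at D22 to D26. Its strands are shown with the seed in capitals, which the 4 miR-302 members share and miR-367 does not.
hsa-miR-302a-3p: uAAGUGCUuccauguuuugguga
hsa-miR-302b-3p: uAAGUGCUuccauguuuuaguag
hsa-miR-302c-3p: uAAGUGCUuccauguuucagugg
hsa-miR-302d-3p: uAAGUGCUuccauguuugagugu
hsa-miR-367-3p: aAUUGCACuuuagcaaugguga

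The MIR302CHG promoter, 250 bases before the RefSeq start at chr4:112650052-112650301 on GRCh38, minus strand, held the full octamer ATGCAAAT (in capitals), which 1.63% of the 35116 promoter windows hold on either strand and none of the 5 members' windows does.
MIR302CHG: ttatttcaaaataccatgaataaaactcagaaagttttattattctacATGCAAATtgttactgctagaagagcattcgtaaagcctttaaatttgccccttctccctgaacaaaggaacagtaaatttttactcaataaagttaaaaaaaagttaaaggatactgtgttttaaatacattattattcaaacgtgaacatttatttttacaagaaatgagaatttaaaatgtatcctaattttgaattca

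Between D5 and D10 in dSMADi, 9 of 28 of these genes were lower (3.06% of all genes) and 3 higher, a share near the 10.9% of all genes, with VSNL1 going from 59.3 to 6.02 CPM and CLDN6 from 40.9 to 9.65, while USP44 went from 67.9 to 143 and PODXL from 22.9 to 65.6. Between the arms at D5, 3 of 29 were lower with XAV939 (2.31% of all genes) and 0 higher (2.20%), namely VSNL1, at 59.3 and 25.1 CPM, and UTF1 and PRDM14, which were near 1 CPM or under it and are named after their values were seen. At D10 1 of 28 was lower (PODXL, 65.6 and 27.5 CPM; 5.15% of all genes) and 1 higher (3.10%).

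In the Nodal pathway of TDGF1, 6 of 13 genes were lower at D5 in dSMADi (21.7% of all genes) and 2 higher (12.5%), with a median log2 ratio of -0.27. FOXH1, a DNA-binding partner of SMAD proteins, went from 64.5 to 1.48 CPM and the inhibitory SMAD7 from 22.9 to 2.00, whereas the signal transducers SMAD2 and SMAD3 went from 45.5 to 119 and from 5.27 to 15.7. With XAV939 the counts were the same, 6 lower (20.9% of all genes) and 2 higher (13.6%).

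The pathway of LIN28 and let-7 showed no common movement by D5, with 2 of 18 genes lower (21.7% of all genes) and 2 higher (12.5%) in dSMADi (median -0.06). MYCN, a let-7 target, went from 55.6 to 18.97 CPM and the exportin XPO5 from 35.5 to 20.4, while TUT4, which tails let-7 precursors with LIN28, went from 72.3 to 204 and ARID3A from 37.4 to 86.1. In the late series 4 of 18 were lower at D24 than at D22, where 15.2% of all genes were, and 0 were higher (13.0%). The chromatin protein HMGA2, a let-7 target, went from 60.4 CPM at D22 to 4.65 at D24 and 1.44 at D26, and HMGA1 from 281 to 80.2 at D24, whereas TUT4 went from 224 to 308 and DICER1 from 96.6 to 140.0.

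TERF1 was set beside the 11 other shelterin and telomerase genes, of which 1 was lower at D5 in dSMADi, where 21.7% of all genes were, and 0 were higher (median -0.51), while TERF1 fell 11.1-fold. With XAV939 3 of the 11 were lower (background 20.9%) and 0 higher (median -0.60). NOP10 and NHP2, subunits of telomerase particles, went from 389 to 199 and from 332 to 169.9 CPM, and the shelterin genes TERF2IP and POT1 from 29.4 to 46.0 and from 8.09 to 13.6. The 1 lower gene in dSMADi was TERT, the telomerase reverse transcriptase, from 3.28 to 0.314 CPM, which is named after its values were seen. TERF2IP went on to 293, 591 and 927 CPM at D22, D24 and D26.

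Markers of other states gave the following. Of 9 naive-state genes, 7 had enough UMIs at D0 or D5, 3 were lower (21.7% of all genes) and 0 higher (12.5%) in dSMADi, and their sum at D0 was 6.28 CPM. Of 10 neural progenitor genes 9 were higher at D5 in dSMADi, where 12.5% of all genes were (median log2 ratio 2.58, all genes -0.12), such as PAX6, from 5.73 to 157 CPM, and RAX, from 2.56 to 52.6. Markers of mesendoderm, endoderm, trophoblast and amnion, germ cells, neural crest and placode summed to 0.540 to 37.9 CPM at D0, the highest being neural crest, of which FOXD3, which stem cells also express, made up 37.4 CPM. At D24, where DPPA4, L1TD1 and LIN28A were lower than at D22, 8 of 8 neuron genes were higher (13.0% of all genes; median log2 ratio 1.45), with GAP43 going from 145 to 1620.0 CPM, and 8 of 10 neural progenitor genes were lower (15.2% of all genes). The part of these shifts in cell makeup in the levels of the pluripotency genes was not tested, other than by the values within classes.

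The genes most like POU5F1 over the 8 libraries, by Pearson correlation of log2(CPM + 1) over the 8378 genes with at least 20 CPM in a library, were DAZAP1 (0.998), ENPP1 (0.993), HAPLN3 (0.991), CYP2S1 (0.990) and VRTN (0.990). DAZAP1 went only from 205 CPM at D0 to 87.3 at D5 in dSMADi and 45.9 at D22, so the likeness is of the course and not of its size. Those most like LIN28B were HAUS2 (0.997), OTULIN (0.995), ZFP91 (0.993), HDHD2 (0.983) and LYRM7 (0.983). The 8 points share runs and cell line, and the correlations are descriptions.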

How the data were processed

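The deposited values were UMI counts per gene and cell, which the authors made with Cell Ranger (3.1 in the submitters' processing notes; 3.1.0 in the file headers of D22 to D26 and 6.1.2 in those of D0 to D10) and assigned to D0, D5 and D10 by tag. Cells were kept by the study's limits on UMIs, genes, complexity and mitochondrial share. At D0 the complexity limit left 1 of 1292 barcodes and was dropped after the data were seen, which left 1009 cells, 1 more than the study's number. At D5 and D10 the study's numbers equal all the deposited barcodes (2480, 2919, 2778 and 2638), of which its stated limits kept 2419, 2815, 2416 and 2168. Doublets were scored per library but kept, since the automatic threshold marked under 0.5% of cells in 5 libraries; a score over 0.25 was found in 1.78 to 7.46% of cells.

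UMIs were summed per library. Intervals were exact (Poisson for levels, the binomial split of UMIs for ratios, Clopper-Pearson for shares) at the 95% level, and for levels a count of 0 was read as a limit of 3 UMIs. Clusters (scanpy 1.11.5, leidenalg 0.10.2, resolution 0.5) were built without the pluripotency genes and named from 3 or more of their markers, so class sizes can differ from the study's. The calls, ratios and thinning were tested on simulated Poisson counts, and the other steps were not. Such counts cannot show how far libraries of 1 condition would differ. edgeR 4.0.16 and DESeq2 1.42.0 in R 4.3.3 served only to rescale libraries. Other tools were Python 3.11.15, numpy 2.4.6 and scipy 1.17.1.

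The members, lists and alternatives were chosen with earlier results of these data known. Besides the 10 members, genes were named by list: the 2 highest and 2 lowest ratios among list genes with at least 10 CPM in either library. Positions are from GENCODE 44 and promoter and microRNA sequences from RefSeq on GRCh38.p14. Alternatives covered cell filters, doublet scores, the call rule, scaling, thinning and clustering.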

Additional observations from a re-analysis of the deposited data

Results flagged for a closer look

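The ratio of L1TD1 with to without XAV939 pointed in opposite directions at the 2 days, at 0.77 on the log2 scale at D5 and -0.22 at D10, with counting intervals that leave out 0 on both days. LIN28A, which passes 2-fold on neither day, also turned, from -0.097 at D5 to 0.19 at D10. With 1 library per day and arm, the difference between the days was not tested.

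The tag counts, which no comparison uses, held the D0 tag in cells assigned to other cultures. It made up 0.463% of tag counts at D5 dSMADi, 0.502% at D5 XAV939, 0.466% at D10 dSMADi and 0.609% at D10 XAV939 over all cells.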

How the results depend on the processing

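The counts of called genes were recomputed without a filter on cells, with a stricter one, without high doublet scores, by the mean over cells, with TMM and DESeq2 factors, with totals free of mitochondrial and ribosomal protein genes, and under other limits of the call. Of 183 such values, 170 stayed within 1.5-fold of the count reported and 13 did not. The 170 include counts of 0 that stayed at 0, so they overstate how far the counts were put to the test. The count of 8 genes lower at D5 than at D0 was 8 under each setting run, in both arms. With only genes of at least 10 CPM, the count lower from D5 to D10 in dSMADi went from 2 to 1 (L1TD1), that lower from D22 to D24 from 3 to 1 (DPPA4) and that higher from 1 to 0, that lower from D24 to D26 from 1 to 0, and that lower with XAV939 at D5 from 1 to 0. With a 4-fold limit the count lower from D5 to D10 in dSMADi was 1 (ZFP42), that lower from D22 to D24 1 (DPPA4), that higher 0, and that lower with XAV939 at D5 0. With a 1.5-fold limit 2 genes (POU5F1 and L1TD1) were lower from D5 to D10 with XAV939, and 1 (L1TD1) was higher with XAV939 at D5. Without thinning, 2 genes (NANOG and ZFP42) instead of 4 were in under 5% of D10 dSMADi cells. With each library clustered on its own, 8 genes instead of 5 varied at least 2-fold between clusters, POU5F1, ESRG and LIN28B being the 3 more; the cause was not tested. Both counts hold NANOG only because a cluster had 0 UMIs of it, which does not by itself show a 2-fold range. At resolution 1.0 no cluster did, and NANOG ranged 3.33-fold, its lowest cluster resting on 2 UMIs, and POU5F1 2.05-fold. ZFP42 entered the count of 5 in the same way, through a cluster with 0 UMIs. It ranged 10.2-fold at resolution 1.0 and 11.5-fold with each library clustered on its own. The lower count from D5 to D10 in dSMADi was 3, with POU5F1, under TMM and DESeq2 factors and totals free of mitochondrial and ribosomal protein genes.

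TMM scaling moved all log2 ratios of D10 to D5 by -0.24 without and -0.19 with XAV939, and those of D26 to D24 by -0.26. No cell of D5 or D10 fell in the D0 cluster, so leaving such cells out changed nothing. Of 842 values for single genes (log2 ratios and shares of cells), 173 moved by more than counting error, mostly shares without thinning and ratios under other scalings. Of 74 log2 ratios of single genes, 10 changed sign under some setting, none above 0.194 in size in the values reported. Levels as a percent of D0 stayed within 0.893 to 1.13 times the values given over the scalings (67 levels). TMM and DESeq2 factors were made within each run and were not applied to the D22 to D26 levels. Those were rescaled only by totals free of mitochondrial and ribosomal protein genes and by totals over genes in both lists. The 1 library per condition limits every comparison, as do the few late UMIs of POU5F1, NANOG, TDGF1 and ZFP42. No paired analysis was possible because each condition is 1 library.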
